A study of Ovis aries with 115 samples.

Results

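The genes described here are the 150 genes of the ewe cervix whose RNA level followed that of CD27 most closely from ewe to ewe. CD27 (ENSOARG00000008332) is a receptor of the tumour necrosis factor receptor family that is carried by T cells, memory B cells and plasma cells. Members were chosen from 15649 genes, of 27054 in the files, that reached a CPM, the read count scaled to library size, of at least 1 in at least 10 ewes of all breeds and states. For each gene, log2(CPM + 0.5) was taken and the mean of the ewe's own breed and state was subtracted, and the 150 genes of highest Pearson correlation (r) with CD27 were kept, leaving out CD27 itself, CD80, PDCD1 and FLT3. The choice therefore used differences among ewes of 1 breed and state, and did not use the differences between breeds or states.

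RNA was sequenced from the mid-cervix, taken post mortem from multiparous ewes of 4 breeds, 4 to 5 years old. Norway was the country of the Fur and the NWS (Norwegian White Sheep) groups and Ireland that of the Suffolk and Belclare groups, so that breed and country cannot be told apart. Synchronised ewes had carried an intravaginal progestagen sponge and were given equine chorionic gonadotrophin when it was removed, and they were sampled in the follicular phase (10 Belclare, 8 Fur, 10 NWS and 11 Suffolk ewes) or in the luteal phase (10, 9, 8 and 10 ewes). Ewes of a natural cycle were sampled in the follicular phase only (10, 10, 10 and 8 ewes). Suffolk was the reference breed, as the breed of lowest fertility after cervical insemination with frozen-thawed semen. Each library was taken as 1 ewe from its label, which does not state it for every state.

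Lymphocytes in the wall of the lower reproductive tract include T cells, B cells and the plasma cells that B cells become. Plasma cells put most of their RNA into the heavy and light chains of 1 antibody, and the cervix is known as a site of local antibody secretion. In RNA from whole tissue, fewer cells of a type and less RNA per cell cannot be told apart.

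Libraries held 12238996 to 31261671 counts (median 17835128). Several stood apart. In the synchronised luteal Belclare ewe of replicate 7 the members took 15.1% of all counts, and in the synchronised follicular Suffolk ewe of replicate 2 they took 9.75%, whereas the next highest ewe of any group was Suffolk luteal replicate 5 at 4.88%. Natural follicular NWS replicate 5 had the lowest median level over all genes. Natural follicular NWS replicates 4 and 10 held the mitochondrial gene COX-1 at a level otherwise seen only in Fur ewes: 2 of the 10 libraries of that group were under 100 CPM, as were all 27 Fur libraries and no other. COX-1 was chosen for this check after its values were seen. Beside results that these libraries moved, the values without them are given.

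Of the 150 members, 9 carry a gene symbol in the sources used here, and 141 are known by their Ensembl identifier alone. Most symbols came from the study's lists of genes that differed between Suffolk and another breed in the synchronised follicular phase, chiefly genes higher in Suffolk than in Fur. The named members are for that reason not a fair sample of the 150, and their direction in those same ewes is not independent evidence. The highest r was that of IRF4, a transcription factor required for plasma cells to form (0.896). The next were 2 members without a symbol, ENSOARG00000001917 (0.888) and ENSOARG00000006627 (0.869). Both identifiers that the study's tables name IGHG3, the constant region of an immunoglobulin G heavy chain, were among the first 10 (ENSOARG00000000857, 0.856, and ENSOARG00000009143, 0.844).

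IGLV2-33, a variable segment of the lambda light chain, had an r of 0.72. Members known from blood cells in general were RINL (0.81), PTPN7, a phosphatase of blood cells (0.72), SASH3, an adaptor protein of lymphocytes (0.71), and IKZF1, the lymphoid transcription factor Ikaros (0.71). ELFN2, a membrane protein with leucine-rich repeats that is in none of the lists of markers, had 0.68. Over all 150 members the median r was 0.678, with 18 members at 0.8 or more, 47 from 0.7 to 0.8 and 85 below 0.7. The last member inside had 0.5751 and the first gene outside 0.5748, so the edge of the set does not mark a gap. The genes left out by the rule had an r of 0.18 (CD80), 0.21 (PDCD1) and 0.32 (FLT3). These r values chose the members and are given as a description only.

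**Figure D1:**
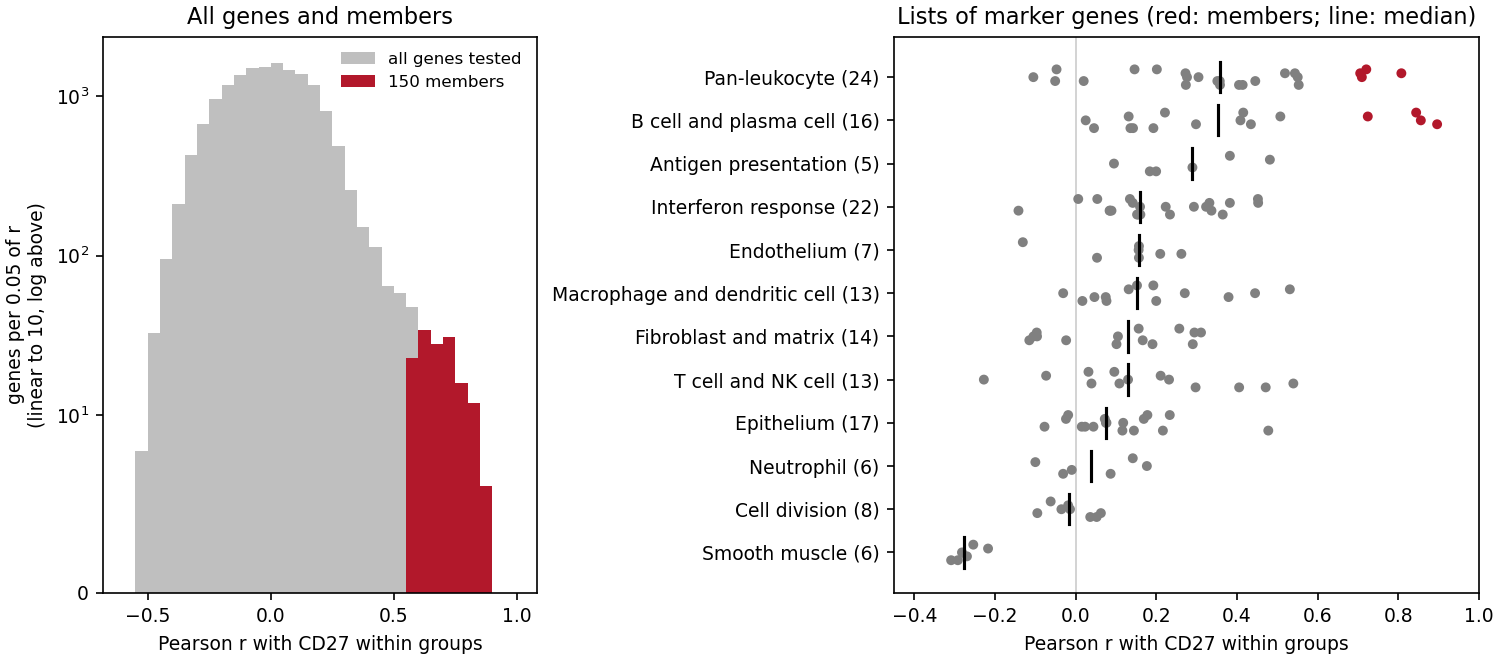
Pearson r with CD27 after the mean of each breed and state was subtracted. The left panel counts genes per 0.05 of r (all genes tested in grey, the 150 members in red), and the right panel shows each gene of 12 marker lists (number of identifiers in brackets, members in red, black line at the list's median). Only the B cell and plasma cell list and the pan-leukocyte list hold members, 4 each, and all smooth muscle markers lie below 0.

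The set was checked against lists of cell markers, as far as their genes carry a symbol. The B cell and plasma cell list had 16 identifiers tested, of which 4 were members: IRF4, both IGHG3 identifiers and IGLV2-33. The pan-leukocyte list had 24, of which 4 were members: RINL, PTPN7, SASH3 and IKZF1. None of the 13 tested identifiers of the T cell and NK cell list was a member. Its nearest genes were GPR18 (r 0.54), a receptor found on lymphocytes, and NCR3 (0.47), an activating receptor of NK cells, and its median r was 0.13 against 0.35 for the B cell and plasma cell list. The defining T cell genes, such as CD3E, carry no symbol here and could not be looked for.

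Outside the members, other genes of B cells had a lower r. TNFRSF13C, the receptor for the B cell survival factor BAFF, had 0.51, IGHE, the heavy chain of immunoglobulin E, 0.43, and TNFRSF13B, also a receptor for BAFF, 0.42. PRDM1, a factor that drives plasma cell formation and is also active in epithelia, had 0.22 and was read at 21.0 to 222 CPM in every ewe. No macrophage, neutrophil, epithelial, endothelial, fibroblast, interferon, antigen presentation or cell division marker was a member. All 6 smooth muscle markers had a negative r, from -0.31 to -0.22.

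The members were unlike most genes in their spread and in their level. Their spread was wide: within breed and state the median standard deviation (SD) was 0.608 on the log2 scale, against 0.372 for all genes tested. Ranking by r favours genes that vary by more than counting noise, so the wide spread may follow from the choice of members. Most took few counts. The mean CPM, which is not corrected for gene length, had a median of 3.53 for the members and 21.6 for all genes tested, with 92 members under 5 and 9 at 100 or more. Those 9 include both IGHG3 identifiers and ENSOARG00000001917, and the member that took most counts, ENSOARG00000012585 (named for that after its values were seen), had a mean of 3604 CPM. A total of 12 members reached the limit of 1 CPM in 10 ewes only with the ewes of 1 breed, state or group included. They are part of the counts below: 6 of the 93 members called in luteal Fur, 3 of 12 and 2 of 20 in synchronised follicular Fur and NWS, 6 of the 46 called higher for phase over the breeds, 7 of 79 in Belclare and 2 of 24 in Suffolk.

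The members also went together with each other, which largely follows from choosing each by its r with CD27 in the same ewes. All pairs of members were positively correlated, with a median pairwise r of 0.607, and the first principal component held 61.2% of their variance. The pair of IGHG3 identifiers had an r of 0.99. Immunoglobulin genes are a family of near-identical copies, and since only uniquely mapped read pairs were counted, reads may be split between such copies or lost, so that each single immunoglobulin value is uncertain. In 17 ewes at least 135 of the 150 members lay above the mean of their own group, and in 12 ewes at most 15 did.

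**Figure D2:**
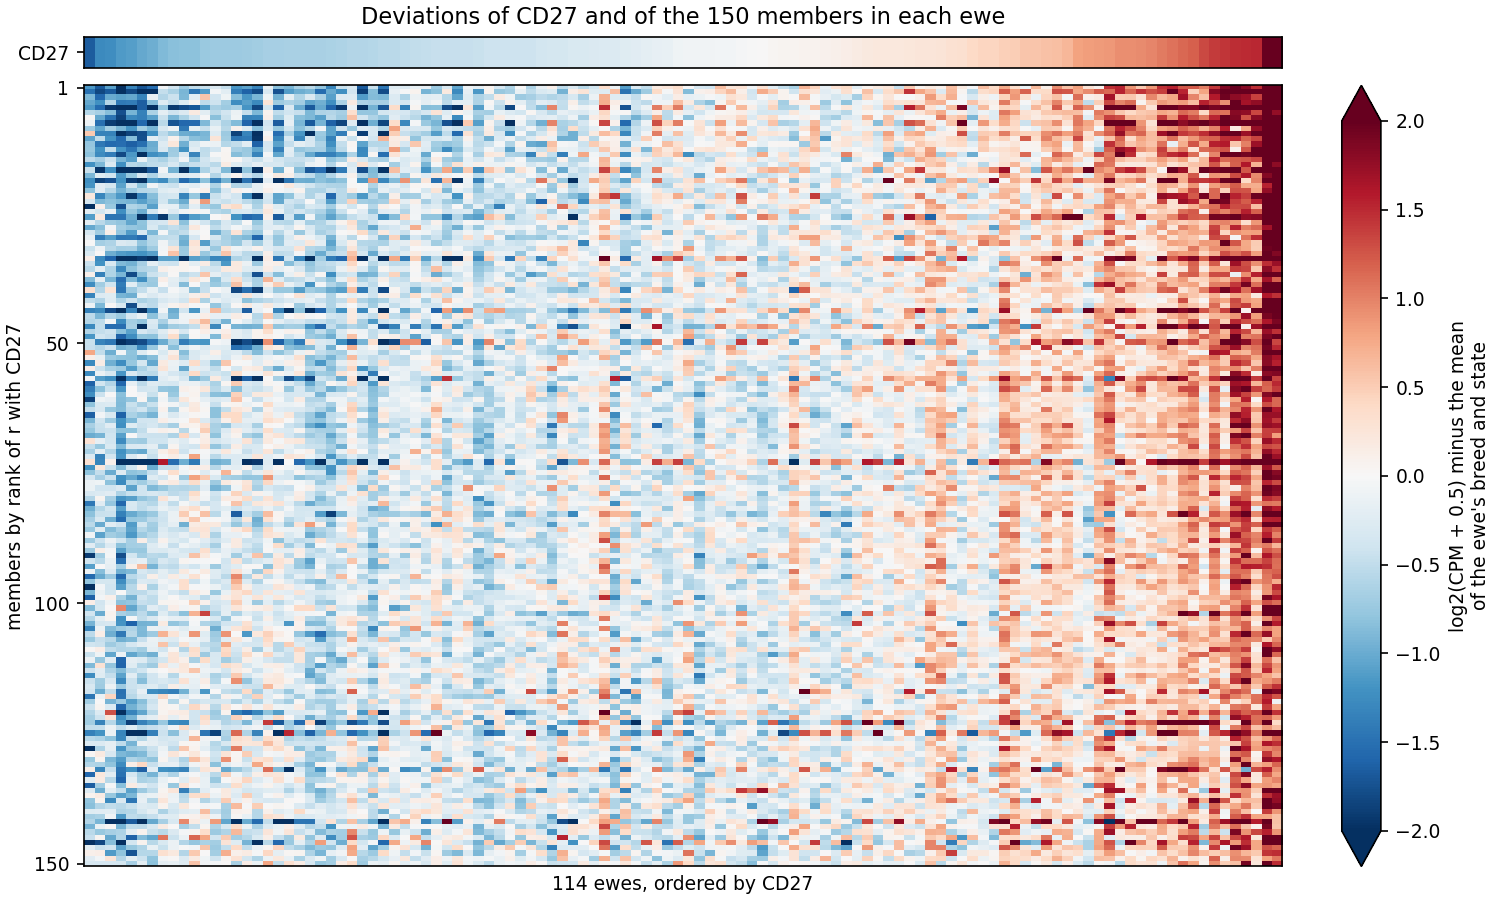
Deviation of CD27 (upper strip) and of each of the 150 members (rows, by rank of r) from the mean of the ewe's breed and state, in log2(CPM + 0.5), for all ewes in the order of CD27. Colours stop at 2 units. The members were chosen for this pattern. In 17 ewes at least 135 of the members lie above their group's mean, and in 12 ewes at most 15 do.

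When members were chosen again without 1 of the 3 states, 128 to 134 of the 150 were shared, and the newly chosen sets could be followed in the ewes left out. There the median r with CD27 was 0.66 in the synchronised follicular, 0.58 in the natural follicular and 0.75 in the synchronised luteal ewes, where the medians of all other genes were -0.08, 0.15 and -0.08. These values are a description, since all points share the ewes and CD27. Within single breeds the median r of the members was 0.69 in Fur and 0.70 to 0.72 in the other breeds. All 9 named members were kept in each of the 8 alternative ways of choosing the set.

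The level of the members in a ewe, taken as the median of log2(CPM + 0.5) over the 150, was highest in the synchronised luteal phase of Suffolk. There it ranged from 2.13 to 3.61 with a median of 2.44. Luteal Belclare ewes ranged from 1.45 to 3.95 (median 1.97), luteal NWS ewes from 1.28 to 3.33 (median 1.80) and luteal Fur ewes from 0.55 to 2.56 (median 1.63). In the luteal phase the lowest Suffolk ewe thus lay above the median of each other breed, while the ranges overlapped. In the synchronised follicular phase the medians were 1.69 in Suffolk, 1.52 in NWS, 1.48 in Fur and 1.36 in Belclare. In the natural follicular phase they were 1.47, 1.32, 1.46 and 1.36 in the same order of breeds, and they differed by less than the spread within each group (SD 0.32 to 0.65).

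**Figure D3:**
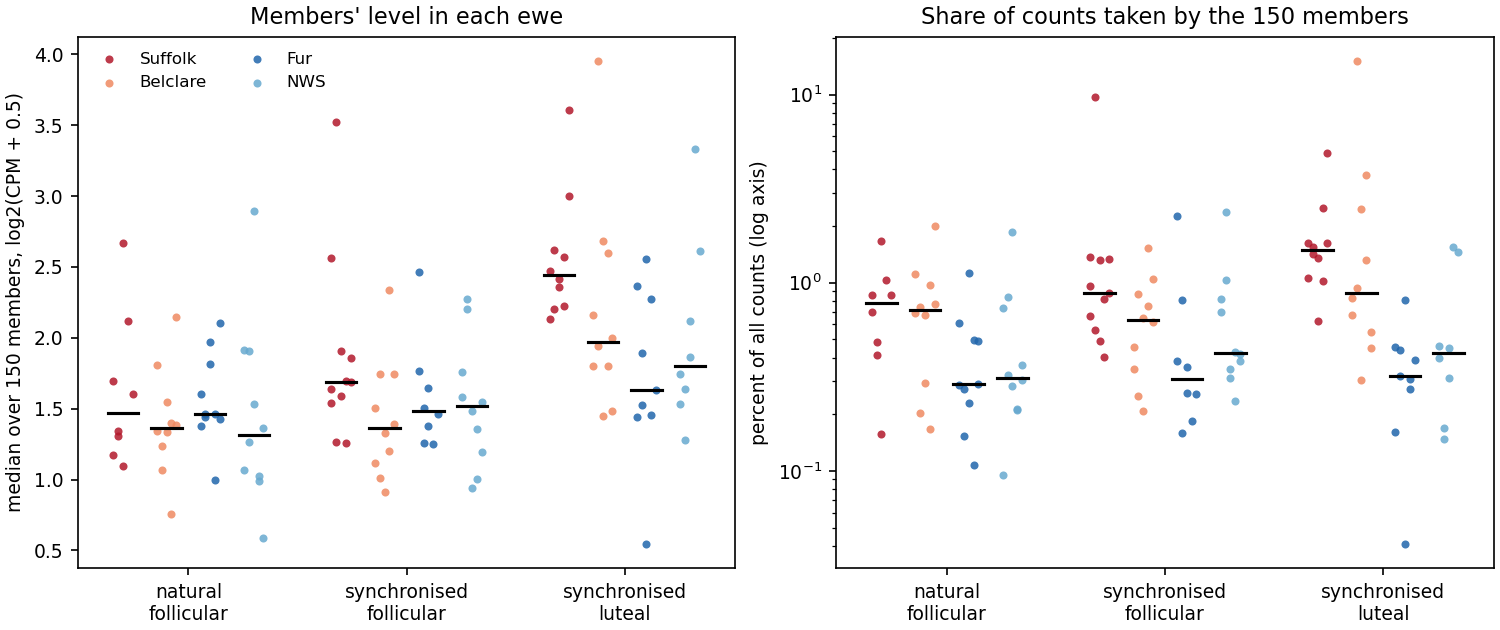
Left, the median over the 150 members of log2(CPM + 0.5) in each ewe, and right, the percent of all counts that the members took (log axis), by breed and state. Each point is 1 ewe and each bar a group's median. Suffolk luteal ewes sit between 2.13 and 3.61 on the left, and the highest points on the right are Belclare luteal replicate 7 (15.1%) and Suffolk synchronised follicular replicate 2 (9.75%).

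Whether the breeds differed was tested in each state with edgeR's quasi-likelihood test on all 15649 genes. A gene was called when the adjusted p was under 0.05 and the fold change above 1.5. The 3 comparisons of a state share the Suffolk ewes, and members move together, so that their calls are not independent of each other.

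In the synchronised luteal phase the members were lower in Fur than in Suffolk. Of the 150, 93 were called lower, and of all genes tested 7.53% were called lower and 6.72% higher. The median log2 fold change of the members was -0.96, against -0.02 for all genes. IGLV2-33 ranged from 1.68 to 29.0 CPM (median 15.2) in Suffolk and from 0.0519 to 4.00 (median 1.30) in Fur. The antibody genes fell furthest among the named members: log2 fold changes were -3.36 ± 0.58 (SE) for IGLV2-33 (adjusted p = 0.00066, edgeR), -2.97 ± 0.55 for IGHG3 ENSOARG00000000857 and -2.76 ± 0.51 for IGHG3 ENSOARG00000009143.

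IGHG3 ENSOARG00000009143 was read at 1186 to 12539.6 CPM (median 3663) in luteal Suffolk ewes and at 67.1 to 1637 CPM (median 609) in luteal Fur ewes. IRF4 ranged from 5.78 to 35.4 CPM (median 12.9) in Suffolk and from 0.363 to 8.82 (median 3.75) in Fur. The ranges of these genes overlapped. Of the 9 Fur ewes, 5 lay below all Suffolk ewes in IGLV2-33, 8 in IGHG3 ENSOARG00000009143 and 8 in IRF4. IRF4 fell by 1.89 ± 0.39 on the log2 scale, ELFN2 by 1.72 ± 0.33, IKZF1 by 1.44 ± 0.31, PTPN7 by 1.06 ± 0.27 and SASH3 by 1.02 ± 0.31. RINL was the only named member not called. CD27 itself fell by 1.59 ± 0.37 (adjusted p = 0.0040, edgeR).

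The fall was larger in the members that took most counts. The 9 members of at least 100 CPM had a median log2 fold change of -2.53, with 8 called lower, and the other 141 had -0.93, with 85 called lower. Outside the members, 7 of 12 B cell and plasma cell genes, 3 of 13 T cell and NK cell genes and 12 of 20 pan-leukocyte genes were called lower in luteal Fur, and none of these 3 lists had a gene called higher. Examples were TNFRSF13C (-1.52 ± 0.30), GNLY, a protein of cytotoxic granules (-2.25 ± 0.53), and LCP1, an actin-bundling protein of leukocytes (-0.89 ± 0.23). These lists were drawn from symbols of genes that mostly differed between Suffolk and Fur in the follicular phase.

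Leaving out any 1 of the 19 ewes left 72 to 105 members lower. Smooth muscle markers moved with the breeds: their summed level was 329 to 1047 CPM in luteal Suffolk ewes and 663 to 9012 CPM in luteal Fur ewes, and all 6 were called higher in Fur. Other markers were lower in luteal Fur than in luteal Suffolk ewes in their median sum, at 2317 and 3438 CPM for epithelium, 820 and 1229 for endothelium and 1196 and 2393 for the interferon response, and their part in the result was not tested. With the smooth muscle sum as a covariate 2 members were called lower, where of all genes 5.89% were, and the median log2 fold change was -0.34. How far the share of muscle in the piece of cervix and the breed each account for the difference cannot be told apart here.

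In luteal NWS ewes the members leaned the same way by less. Against Suffolk 11 were called lower, and of all genes 1.56% were called lower and 2.75% higher. Log2 fold changes of the members had a median of -0.50, and 142 of the 150 were negative. The named members called were again the antibody genes. In NWS, IGLV2-33 ranged from 1.24 to 15.9 CPM (median 1.64) and fell by 2.10 ± 0.57 on the log2 scale (adjusted p = 0.029, edgeR). IGHG3 ENSOARG00000009143 ranged from 93.3 to 2773 CPM (median 619) and fell by 2.13 ± 0.62, and IGHG3 ENSOARG00000000857 fell by 2.10 ± 0.64. Of the 8 NWS ewes, 4 lay below all Suffolk ewes in IGLV2-33, 6 in IGHG3 ENSOARG00000009143 and 5 in IGHG3 ENSOARG00000000857, and the others overlapped them. These calls were near the threshold in 24 alternative fits, which leave out the fit with the smooth muscle covariate given below. Of the 24, 7 kept that of IGHG3 ENSOARG00000000857 (adjusted p up to 0.091, edgeR), 14 that of IGHG3 ENSOARG00000009143 and 18 that of IGLV2-33.

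This count rested on single ewes, and the share of all genes called without each ewe is not given. Leaving out 1 ewe at a time gave 2 to 35 members: 35 without NWS replicate 4, 17 without NWS replicate 5, and 2 to 7 without any 1 of NWS replicates 1, 2, 3, 6, 7 and 8 or of Suffolk replicates 1 to 7 and 9. Summed smooth muscle markers were at 1029 to 4153 CPM in luteal NWS ewes, with 5 of 6 called higher. With ACTG2 and DES as the covariate, 0 members were called, and the share of all genes called in that fit is not given.

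In luteal Belclare ewes 0 members were called against Suffolk in either direction by edgeR, and 13 by DESeq2 (3 higher and 10 lower). At an unadjusted p under 0.05 were 11 members and 3866 of all 15649 genes. Of all genes 1.79% were called lower and 0.952% higher. Members had a median log2 fold change of -0.25. This result turned on 1 ewe. Without Belclare replicate 7, 42 members were called lower, where of all genes 4.04% were, and the median was -0.76. That ewe held 79.1 CPM of IRF4 and 41618 CPM of IGHG3 ENSOARG00000009143, where the second highest Belclare ewe held 21.4 and 13973. Smooth muscle markers of luteal Belclare ewes, at 90.1 to 2329 CPM, spanned those of Suffolk, and none of the 6 was called.

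The state on which the study reported was the synchronised follicular phase. There 12 members were called lower in Fur, where of all genes 6.12% were lower and 7.43% higher, and 20 in NWS, where of all genes 8.36% were lower and 10.3% higher. That is 8.0% and 13.3% of the members. The median log2 fold changes were -0.54 in both breeds, and -0.02 and -0.0010 for all genes. IGLV2-33 ranged from 2.19 to 52.5 CPM (median 8.89) in Suffolk, from 0.608 to 8.59 (median 2.34) in Fur and from 0.423 to 14.1 (median 1.94) in NWS. It fell by 2.18 ± 0.62 in Fur (adjusted p = 0.012, edgeR) and by 1.96 ± 0.64 in NWS (adjusted p = 0.018).

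IKZF1 fell by 1.36 ± 0.45 in Fur and by 1.25 ± 0.42 in NWS. IRF4 (-1.79 ± 0.61) and ELFN2 (-1.23 ± 0.42) were called lower in Fur. Both IGHG3 identifiers were called lower in NWS, with adjusted p of 0.049 and 0.041 (edgeR). IGHG3 ENSOARG00000009143 ranged from 797 to 36369.7 CPM (median 1819) in Suffolk, and the highest value, in replicate 2, was followed by 4114 CPM in the next ewe. In NWS it ranged from 576 to 6024 CPM (median 928).

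Single ewes moved both counts, and the share of all genes called in each of these fits is not given. In Fur the count was 31 without Fur replicate 1, 6 without Fur replicate 4, 7 without Fur replicate 7 and 19 without Suffolk replicate 9. In NWS it was 45 without NWS replicate 2, 13 without NWS replicate 10 and 11 without Suffolk replicate 2 (9 lower and 2 higher), which also moved the median log2 fold change of NWS from -0.54 to -0.15. In Fur, leaving out Suffolk replicate 2 gave 7 lower and 1 higher and a median of -0.13. Without Suffolk replicate 2, IRF4 was no longer called in Fur (adjusted p = 0.078), nor was ELFN2 in Fur, and in NWS none of the 4 named members was called any longer, with adjusted p of 0.49 and 0.47 for the IGHG3 identifiers, 0.061 for IGLV2-33 and 0.070 for IKZF1. Summed smooth muscle markers did not overlap between Suffolk (30.1 to 690 CPM) and either Fur (1777 to 8574 CPM) or NWS (2701 to 8262 CPM), so smooth muscle level and breed cannot be told apart. With ACTG2 and DES as the covariate, 0 members were called and the medians turned to 1.31 and 1.25.

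In synchronised follicular Belclare ewes 0 members were called by edgeR and 1 by DESeq2, although 148 of 150 had a negative log2 fold change, with a median of -0.69. At an unadjusted p under 0.05 there were 72 members, all lower, and 1048 of all 15649 genes in either direction. Without Suffolk replicate 2 there were 14 members, the median was -0.31 and 132 of 150 were negative. How many of all genes were at that p without this ewe is not given, so the 14 do not show an excess. Few genes of any kind were called in that comparison (0.00639% of all genes higher and 0% lower). IRF4 ranged from 1.44 to 9.18 CPM (median 3.20) in Belclare and from 1.97 to 61.6 (median 6.58) in Suffolk, a log2 fold change of -1.52 ± 0.54 (adjusted p = 0.51, edgeR). The ranges of the breeds overlapped.

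In the natural follicular phase 5 members were called lower in Fur, where of all genes 4.75% were lower and 4.77% higher: IGLV2-33, ELFN2 and 3 without a symbol, ENSOARG00000002631 (-3.77 ± 0.56), ENSOARG00000026482 (-2.51 ± 0.64) and ENSOARG00000012578 (-2.02 ± 0.68), named because they complete a short list. IGLV2-33 ranged from 3.79 to 21.0 CPM (median 7.23) in Suffolk and from 0.136 to 3.97 (median 0.757) in Fur, with 1 Fur ewe above the lowest Suffolk ewe, and fell by 2.83 ± 0.55 (adjusted p = 0.0042, edgeR). IGLV2-33, ELFN2, ENSOARG00000002631 and ENSOARG00000026482 were each called lower in Fur in all 3 states. Summed smooth muscle markers were at 72.0 to 6006 CPM in natural Suffolk and 1688 to 7781 CPM in natural Fur ewes. With ACTG2 and DES as the covariate, 0 members were called, and the share of all genes called in that fit is not given. Without the covariate the median log2 fold change over all members was -0.10.

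For Belclare and NWS 0 members were called in the natural cycle by edgeR, with 6 and 12 at an unadjusted p under 0.05 and 0 and 2 called by DESeq2, where of all genes 0.00639% and 0.435% were called lower and 0% and 0.492% higher. At that unadjusted p were 1552 and 3147 of all 15649 genes. Without NWS replicates 4 and 10, whose COX-1 was like that of Fur, 0 members were called and the median log2 fold change moved from -0.16 to -0.04. Without NWS replicate 5 it was -0.11, also with 0 called.

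**Figure D4:**
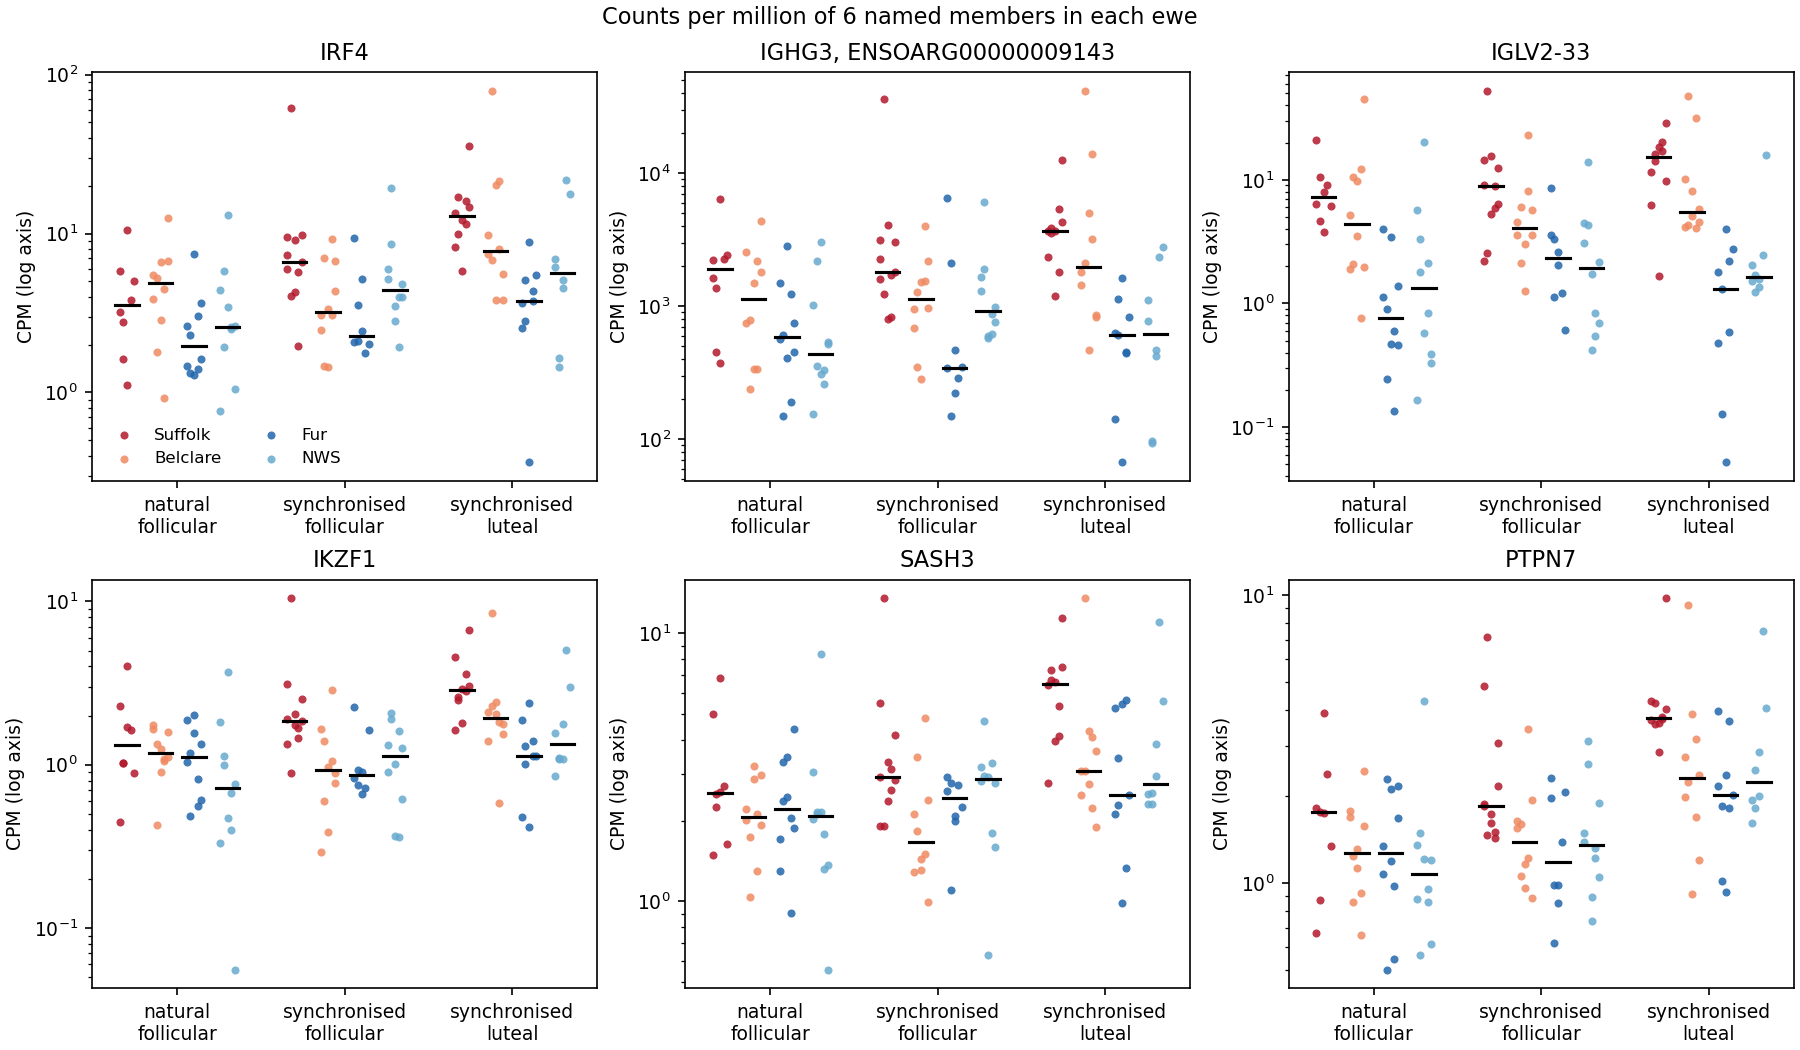
CPM (log axis) of IRF4, IGHG3 (ENSOARG00000009143), IGLV2-33, IKZF1, SASH3 and PTPN7 in each ewe, by breed and state. Each point is 1 ewe and each bar a group's median. In the luteal phase IGLV2-33 has a median of 15.2 CPM in Suffolk and 1.30 in Fur, with overlapping ranges.

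Over the 9 breed comparisons, 97 members were called lower than in Suffolk at least once and 0 were called higher (edgeR), where of all genes 18.3% were called lower and 17% higher at least once. At an unadjusted p under 0.05 at most 4 members were higher in any of them, and DESeq2 called 3 higher, in luteal Belclare ewes only.

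Whether the phase of the synchronised cycle mattered was tested between the luteal and the follicular ewes. Averaged over the 4 breeds, 46 members were higher in the luteal phase, where of all genes 13.2% were, and 1 was lower, where of all genes 12.3% were. The median log2 fold change was 0.43, against 0.01 for all genes, and 130 of 150 were positive. The member called lower was ENSOARG00000003300 (-0.74 ± 0.27, named as the only one). Of the named members, PTPN7 rose by 0.65 ± 0.17 on the log2 scale (adjusted p = 0.00075, edgeR) and RINL by 0.61 ± 0.22 (adjusted p = 0.010).

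The antibody genes were not called. Log2 fold changes were -0.15 ± 0.38 and -0.05 ± 0.37 for the IGHG3 identifiers and -0.07 ± 0.31 for IGLV2-33, and CD27 had 0.18 ± 0.26. The 9 members of at least 100 CPM had a median of 0.03 and the other 141 members 0.44. SASH3 (0.50 ± 0.18, adjusted p = 0.012, edgeR) passed the p threshold but not the fold threshold. Of list genes outside the members, 7 of 13 T cell and NK cell genes were higher in the luteal phase, among them CST7, an inhibitor of cysteine proteases in cytotoxic cells (0.89 ± 0.14), GNLY (1.20 ± 0.28) and NCR3 (0.64 ± 0.14), and 2 were lower, IL12RB2, a chain of the interleukin 12 receptor (-1.87 ± 0.23), and TNFRSF18, a costimulatory receptor of T cells (-1.09 ± 0.18). Of 20 pan-leukocyte genes 1 was higher, LIMD2 (0.80 ± 0.11), and 1 lower, JAK3, a kinase of cytokine receptors (-1.44 ± 0.18). Of the B cell and plasma cell list 4 of 12 were higher, among them IKZF3, a lymphoid transcription factor related to Ikaros (0.61 ± 0.16), and 2 were lower: PRDM1 (-0.92 ± 0.10) and TXNDC5, an enzyme of protein folding in the endoplasmic reticulum (-0.86 ± 0.07).

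By breed, 79 members were higher in the luteal phase in Belclare (11.2% of all genes), 29 in NWS (12.1%) and 24 in Suffolk (9.06%). In these 3 breeds 0 members were called lower by edgeR (13.3%, 10.9% and 9.23% of all genes were), with 2 members lower at an unadjusted p under 0.05, both in NWS, and 0 called lower by DESeq2. The same 15 members were called higher in all of Belclare, NWS and Suffolk, none of them with a symbol, where of all genes 3.67% were. In Fur 0 members were called higher, where of all genes 12% were, with 1 at an unadjusted p under 0.05 and 0 by DESeq2. Of the Fur members 3 were called lower, where of all genes 11.8% were: ENSOARG00000003300 (-1.51 ± 0.57), ENSOARG00000002094 (-0.60 ± 0.25) and ENSOARG00000020078 (-1.15 ± 0.48), named as a short list. Median log2 fold changes were 0.92 in Belclare, 0.43 in NWS, 0.34 in Suffolk and -0.05 in Fur.

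These differences between breeds were not called. The test of breed by phase called 0 members, where of all genes 0.952% were, and DESeq2's likelihood ratio test called 6. At an unadjusted p under 0.05 were 26 of the 150 members and 2627 of all 15649 genes, which are similar shares. IRF4 ranged from 3.80 to 79.1 CPM (median 7.73) in luteal and from 1.44 to 9.18 (median 3.20) in follicular Belclare ewes and rose by 1.94 ± 0.53 (adjusted p = 0.0023, edgeR). In Suffolk its log2 fold change was 0.11 ± 0.50, in NWS 0.22 ± 0.55 and in Fur 0.00 ± 0.58. In Belclare 7 of the 9 named members and CD27 (1.21 ± 0.50) were called higher, all but IGLV2-33 and ELFN2, and in the other breeds none of the 9 was called.

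Both libraries in which the members took most counts bear on these values. Without Belclare luteal replicate 7, 16 members were called higher in Belclare (11.4% of all genes), with a median of 0.37, and none of the 7 named members was called any longer (IRF4 adjusted p = 0.083, edgeR). The mean of 4 breeds then had 26 members higher and 4 lower. Without Suffolk follicular replicate 2, 65 members were called higher in Suffolk (8.74% of all genes), with a median of 0.79, and the mean of 4 breeds had 62 higher. Without Belclare follicular replicate 2, in which smooth muscle markers summed to 11416 CPM, the Belclare count was 69.

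Smooth muscle markers moved with phase too. Their median sum in follicular and luteal ewes was 203 and 554 CPM in Belclare, 280 and 635 in Suffolk, 4713 and 2677 in Fur, and 5702 and 2615 in NWS. With ACTG2 and DES as the covariate, 100 members were higher in Belclare (12.4% of all genes), 60 in Suffolk (9.07%) and 15 in NWS (12.3%), where 2 were lower (10.8%). The Fur count was then 5 lower (12.5%). The test of breed by phase then called 9 members, where of all genes 3% were.

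Other markers moved with phase in Belclare and Suffolk as well, by their median sums in follicular and luteal ewes. Endothelial markers went from 1040.5 to 1200.1 CPM in Belclare and from 974 to 1229 CPM in Suffolk, and interferon response genes from 1753 to 2016 CPM and from 1916 to 2393 CPM. Macrophage and dendritic cell markers went from 1443 to 958 CPM in Belclare and from 1634 to 1083 CPM in Suffolk, and epithelial markers from 5299 to 3889 CPM and from 5119 to 3438 CPM. Fibroblast and matrix markers went from 3453 to 2229 CPM and from 4203 to 2835 CPM, and pan-leukocyte markers other than members from 1085 to 896 CPM and from 1137 to 883 CPM. B cell and plasma cell markers other than members fell, against the members' direction, from 430 to 277 CPM in Belclare and from 527 to 354 CPM in Suffolk. T cell and NK cell markers went from 100 to 113 CPM in Belclare and from 155 to 140 CPM in Suffolk. Their part in the members' values was not tested.

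**Figure D5:**
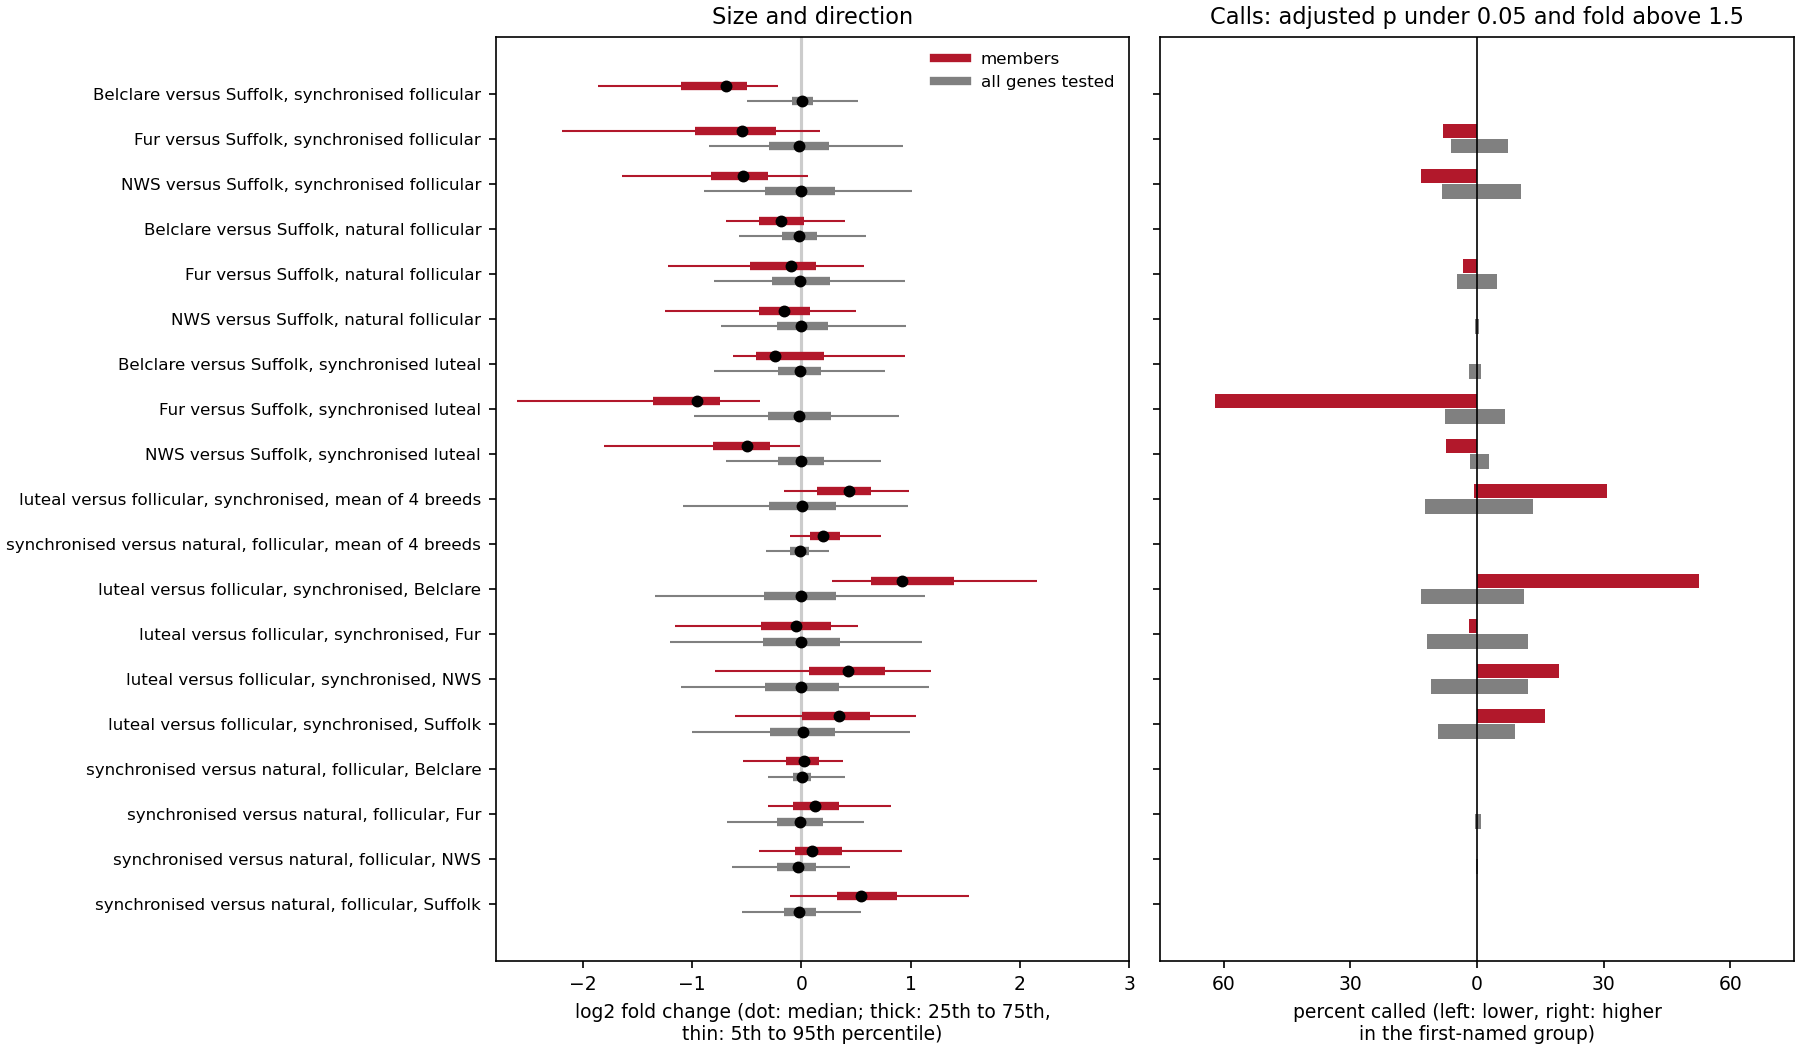
Left, log2 fold change of the 150 members (red) and of all 15649 genes tested (grey) in each comparison, first-named group against second (dot, median; thick line, 25th to 75th percentile; thin line, 5th to 95th). Right, percent called lower (left) or higher (right) at an adjusted p under 0.05 and a fold above 1.5. The members stand furthest from all genes in luteal Fur against Suffolk (93 of 150 lower, 7.53% of all genes) and in luteal against follicular Belclare (79 higher, 11.2% of all genes). Without Belclare luteal replicate 7, 16 members were called higher in Belclare, a share near that of all genes in the same fit.

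Synchronisation was compared with the natural cycle in the follicular phase, with the same synchronised ewes. Averaged over the breeds 0 members were called by edgeR, where of all genes 0.00639% were called in each direction, and 1 by DESeq2. At an unadjusted p under 0.05 were 27 members, all higher, and 2503 of all 15649 genes in either direction. The median log2 fold change was 0.20, against -0.01 for all genes, and 125 of 150 were positive. Without Suffolk synchronised replicate 2 the median was 0.11, with 9 members at an unadjusted p under 0.05. The number of all genes at that p in the same fit is not given. IRF4 had 0.63 ± 0.24 (adjusted p = 0.19, edgeR) and CD27 0.50 ± 0.23 (adjusted p = 0.27).

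By breed 0 members were called by edgeR in any, with 2 in Belclare, 2 in Fur, 7 in NWS and 45 in Suffolk at an unadjusted p under 0.05, and 1 by DESeq2, in Suffolk. Of all 15649 genes, 296, 3589, 2696 and 1699 were at that unadjusted p, in the same order of breeds. Of all genes, 0% were called higher and 0.00639% lower in Belclare, 0.92% and 0.511% in Fur, 0.173% and 0.23% in NWS, and 0% and 0.0192% in Suffolk. The median log2 fold change was 0.55 in Suffolk and 0.03 to 0.12 in the other breeds. It fell to 0.13 in Suffolk without synchronised follicular replicate 2. IRF4 ranged from 1.97 to 61.6 CPM (median 6.58) in synchronised and from 1.11 to 10.5 (median 3.53) in natural Suffolk ewes, so that the ranges overlapped. The test of breed by cycle called 0 members, where of all genes 2.33% were, with 6 at an unadjusted p under 0.05 and 0 by DESeq2's likelihood ratio test. At that unadjusted p were 2651 of all 15649 genes.

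Of the 150 members, 91 were called higher in the luteal phase in at least 1 breed, where of all genes 21.3% were, and 19 were called in no comparison, where of all genes 44.7% were. The 91 include the 79 called in Belclare. Without Belclare luteal replicate 7, 16 members were called there, a share near that of all genes in the same fit.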

How the data were processed

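RNA of the mid-cervix was sequenced by the authors (stranded mRNA libraries, paired reads). They trimmed the reads, aligned them to Oar_v3.1 with STAR 2.6.1b, kept uniquely mapped pairs with up to 2 mismatches and ran featureCounts (Subread 1.6.3) on the Ensembl annotation. Whether counting used strand is not given in the sources used here. The authors deposited raw counts per gene, without normalization, for 115 libraries. The title and labels of 1 library name different states, so it entered no comparison. No genome or sequence of this build was used, and symbols, for 1352 identifiers, came from the study's supplementary tables (names only).

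Counts were tested with edgeR 4.0.16 (TMM, quasi-likelihood, Benjamini-Hochberg over 15649 genes) in R 4.3.3, breed comparisons in a fit of the 2 groups and phase or cycle in a fit of all breeds. SE is the absolute log2 fold change divided by the square root of F. No 2 libraries of a group agreed within counting noise (490 pairs). Replicate numbers were not taken to pair ewes. Of 151 same-number pairs 54 correlated above 0.1, and in 0 of 17 comparisons did every pair, which does not exclude a weaker shared factor. Between synchronised and natural ewes the median same-number r was 0.13 in Belclare, 0.20 in Fur, 0.16 in Suffolk and -0.11 in NWS. P-values measure the spread between ewes. Tests were tried on simulated data first. By the rule the text names members of the lymphocyte and leukocyte lists, up to 10 members with a symbol (9 have one) and the 2 others of highest r by identifier. A further 7 identifiers were named after their values were seen. The members, lists and tests were chosen with earlier results of these data known. Alternatives were DESeq2 1.42.0 (size factors, Wald and likelihood ratio tests), no filter, no fold threshold, 1 fit of 12 groups, a smooth muscle covariate, the replicate number as a block, other ways of choosing members and single libraries left out, those in the luteal phase and those that stood apart after seeing the data.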

Additional observations from a re-analysis of the deposited data

Results flagged for a closer look

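In groups of 10 ewes or fewer, the members' median level and the 9 named members were searched for single ewes far from the rest of their group, on the log2(CPM + 0.5) scale. Of 110 sets of values 16 held such an ewe, where chance flags about 1 in 20, and the measures are correlated. Luteal Belclare replicate 7 was far above its group in the members' median level (3.95, next 2.68), RINL (2.87), SASH3 (3.81), IKZF1 (3.17) and ELFN2 (3.24). Synchronised follicular Fur replicate 1 was high in the median level (2.47, next 1.77) and synchronised follicular NWS replicate 2 in both IGHG3 identifiers (11.2 for ENSOARG00000000857 and 12.6 for ENSOARG00000009143). Luteal NWS replicate 4 was high in RINL (2.51) and luteal NWS replicate 5 in IGLV2-33 (4.04). Luteal Suffolk replicate 5 was high in PTPN7 (3.36) and ELFN2 (1.96), and natural follicular NWS replicate 3 in PTPN7 (2.25). Far below their groups were luteal Fur replicate 8 in IRF4 (-0.21), synchronised follicular Fur replicate 2 in SASH3 (0.68) and natural follicular Belclare replicate 7 in IKZF1 (-0.11). The causes were not tested.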

How the results depend on the processing

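With DESeq2's Wald test the counts against Suffolk were 1 for Belclare and 20 for Fur in the synchronised follicular phase, 2 for NWS in the natural cycle, and 13 for Belclare and 27 for NWS in the luteal phase. It called 1 member for synchronisation over the breeds and 1 in Suffolk, and its likelihood ratio test called 6 for breed by phase. With 1 fit of 12 groups there were 30 for Fur and 33 for NWS (synchronised follicular), 2 for NWS (natural) and 3 each for Belclare and NWS (luteal). Without a filter on low counts there were 3 for Fur in the natural cycle, 5 for luteal NWS and 1 for phase in Fur, where DESeq2's size factors also left 1. Without a fold threshold 74 members were called for phase over the breeds. For most counts of alternative fits, here and above, the share of all genes called by the same fit is not given. Such counts therefore do not show whether the members moved more than other genes.

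With the smooth muscle covariate 0 members were called for Fur and NWS in the synchronised follicular phase, for Fur in the natural cycle and for luteal NWS, and 2 for luteal Fur. For phase there were 5 in Fur, 17 in NWS and 60 in Suffolk, and 9 for breed by phase. It turned the log2 fold change in synchronised follicular Fur to 1.07 (IRF4), 0.48 (IGLV2-33) and 0.85 (IKZF1), in NWS to 3.32 (IGHG3 ENSOARG00000000857), 3.27 (IGHG3 ENSOARG00000009143), 1.05 (IGLV2-33) and 0.76 (IKZF1), and in luteal Fur to 0.085 (SASH3). The cause was not tested.

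With the replicate number as a block, which was not taken to pair the ewes, there were 2 for Fur in the natural cycle, 1 for phase in Fur and 1 for synchronisation over the breeds. Leaving out 1 ewe at a time gave 6 to 31 (Fur) and 11 to 45 (NWS) in the synchronised follicular phase, 2 to 35 for luteal NWS and 72 to 105 for luteal Fur. Leaving out the libraries that stood apart gave 42 for luteal Belclare, and for phase 30 to 62 over the breeds, 16 to 69 in Belclare and 65 in Suffolk, and 0 to 1 for synchronisation. Of 267 such counts 208 stayed within 1.5 times, as did all 8 ways of choosing members (128 to 147 of 150 shared). The 208 include counts that were 0 and stayed at 0, so they do not measure how stable the other counts were. Most members had a mean under 5 CPM, at which single values are imprecise.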

Other observations

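The library whose title and labels name different states was a Suffolk ewe by its title. It held 15387419 counts, its median level over the members was 2.10 on the log2(CPM + 0.5) scale, the members took 0.501% of its counts, and CD27 was at 2.53 CPM.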
